A study of Homo sapiens with 4 samples.

Results

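The genes described here are 8 genes of cholesterol synthesis, HMGCS1, IDI1, FDPS, FDFT1, SQLE, LSS, DHCR7 and INSIG1, in a microarray experiment on 5-azacytidine (AZA) in a myelodysplastic syndrome cell line. They were chosen by name and matched to the gene name of each array feature (a spot carrying one DNA probe) that is not a control. All 8 genes were found, with 9 features among the 58185 features analysed and 8 genes among 43311, and LSS was the gene with 2 features. Of the 8 genes, 7 encode enzymes of the pathway and INSIG1 encodes one of its regulators, so none of them takes up low-density lipoprotein (LDL).

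RNA was taken from MDS-L cells, a line established from a patient with a myelodysplastic syndrome, and from MDS-L/CDA cells, the derivative that was transduced with CDA, the gene of cytidine deaminase, and is resistant to AZA. MDS-L is also called the parental and MDS-L/CDA the resistant line. Cytidine deaminase inactivates cytidine analogues, and AZA is a cytidine analogue that traps DNA methyltransferases. Each line was cultured for 72 h with vehicle, which was 0.1% DMSO, or with 1 μM AZA, in RPMI1640 medium with serum, IL-3 and 2-mercaptoethanol, and each of the 4 combinations was hybridized to 1 array. With 1 array per condition no difference has a replicate check, no test was made, and values compare single cultures. Whether MDS-L/CDA is 1 clone was not stated in the labels, and the vehicle and AZA arrays of a line are the same arrays in every comparison that uses them. One label field gives vehicle for the MDS-L AZA array and AZA for the MDS-L/CDA vehicle array, whereas these arrays' titles, descriptions and source names give the treatments used here. If that field were right, neither line would have an AZA comparison. Titles also give the dose as 1 mM where the other fields give 1 μM.

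Cholesterol is built from acetyl-CoA by way of mevalonate, the isoprenoid farnesyl diphosphate, squalene and lanosterol. The enzymes are transcribed together under the sterol regulatory element-binding proteins (SREBPs), of which SREBP2 is the main activator of this pathway. When sterols are scarce, SCAP carries SREBPs to the Golgi, where proteases release the part that enters the nucleus, and when sterols are plentiful the INSIG proteins hold SCAP back. INSIG1 is itself an SREBP target. The pathway is active in proliferating leukocytes, which need membrane sterol.

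The sequences before the start of 3 of the genes are shown because they belong to the gene with the lowest AZA/vehicle ratio of the 8 in both lines (INSIG1), to the first enzyme of the set (HMGCS1), and to the enzyme whose ratio was far below 1 in MDS-L cells and near 1 in MDS-L/CDA cells (FDPS). They are RefSeq sequences of GRCh38.p14, 250 bases up to the start of transcription, on the strand of the gene. Capitals mark matches on either strand to 3 motifs, the CCAAT box (CCAAT), the GC box (GGGCGG) and a relaxed form of the sterol regulatory element (TCACNCNAC). Overlapping matches are joined. The motifs were chosen after matches had been looked at.
INSIG1, chr7:155297628-155297877, plus strand: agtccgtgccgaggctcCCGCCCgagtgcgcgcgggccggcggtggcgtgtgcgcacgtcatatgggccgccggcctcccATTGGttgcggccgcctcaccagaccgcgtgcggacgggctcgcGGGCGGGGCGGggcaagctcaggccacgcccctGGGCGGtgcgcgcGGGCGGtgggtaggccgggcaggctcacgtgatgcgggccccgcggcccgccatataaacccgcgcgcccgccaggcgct
HMGCS1, chr5:43313413-43313662, minus strand: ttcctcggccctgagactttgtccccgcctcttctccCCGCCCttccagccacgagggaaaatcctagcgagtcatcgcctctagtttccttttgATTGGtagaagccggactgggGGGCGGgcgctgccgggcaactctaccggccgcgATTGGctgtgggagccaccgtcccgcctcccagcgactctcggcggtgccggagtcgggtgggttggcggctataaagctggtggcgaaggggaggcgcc
FDPS, chr1:155308616-155308865, plus strand: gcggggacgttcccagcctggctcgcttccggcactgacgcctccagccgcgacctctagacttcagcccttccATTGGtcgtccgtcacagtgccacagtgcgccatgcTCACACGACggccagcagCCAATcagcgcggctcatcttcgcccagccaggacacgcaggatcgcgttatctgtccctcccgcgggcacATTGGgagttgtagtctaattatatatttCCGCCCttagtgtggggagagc
The RefSeq table held 10 promoters of 6 of the genes. A CCAAT box was found in 7 of the 10 and in at least 1 promoter of each of the 6 genes, against 32.0% of all 35116 promoters in the table. A GC box was found in 9 of the 10 and again in each of the 6 genes, against 42.6% of all promoters. Both shares are per promoter, and the share of all genes with a match in at least 1 promoter was not counted. Some genes have several promoters, and promoters of HMGCS1 and of IDI1 overlap in part. The stricter sterol regulatory element TCACNCCAC had no match in the 10 promoters and matched 0.883% of all promoters, and the relaxed form, which includes the stricter one, matched FDPS and 2.02% of all promoters. In FDPS that match, TCACACGAC, began 140 bases before the start, near a CCAAT box that began 122 bases before it. A match is a run of letters and not a measured binding site, and no DNA methylation or protein binding was measured here.

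Signals are given as multiples of the 75th percentile of their array, which was between 37.3 and 52.9 intensity units on the 4 arrays. Between 32.6% and 36.5% of the features had the scanner software's flag for a signal well above background, and no spot was saturated. All 9 features of the 8 genes were well above background on all 4 arrays, and none of their spots had an outlier flag. The array measures error only between the spots of features printed several times. Over 260 to 265 such features brighter than the 75th percentile, the SD between spots gave a log2 ratio of 2 arrays an SD of 0.28 for AZA over vehicle in MDS-L cells, 0.37 for the same in MDS-L/CDA cells, 0.30 for the lines with vehicle and 0.36 for the lines with AZA. Hybridization and culture add to it by an unknown amount.

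HMGCS1 encodes the cytosolic synthase that makes HMG-CoA, the precursor of mevalonate. Its probe lies at chromosome 5, 43290117 to 43290176 of hg19, on the minus strand. Its signal in the parental line was 17.4 without and 8.31 with AZA, and in the resistant line 16.4 without and 10.69 with it. Both AZA arrays were below both vehicle arrays, and the vehicle arrays of the 2 lines were close to each other.
INSIG1 (probe at chromosome 7, 155101843 to 155101902) had a signal that was 13.0 with vehicle and 4.99 with AZA in the parental cells, and 11.8 and 5.90 in the resistant cells. Both AZA arrays were again below both vehicle arrays.
FDFT1 encodes squalene synthase, the first enzyme committed to sterols (chromosome 8, 11696201 to 11696260). Its signal in the parental line was 158 without and 85.7 with AZA, and in the resistant line 176 without and 130 with it. The same order held here.
For these 3 genes both AZA arrays lay below both vehicle arrays, and for the other 5 they did not by the brightest feature. The dimmer feature of LSS, given below, did have that order.

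IDI1 encodes the isomerase that interconverts the 2 activated isoprene units (chromosome 10, 1086619 to 1086678, minus strand). Its signal was 18.9 with vehicle and 12.3 with AZA in the parental cells, and 11.6 and 7.66 in the resistant cells. AZA was below vehicle in each line, and MDS-L/CDA vehicle was no higher than MDS-L AZA.
DHCR7 encodes the reductase of the last step to cholesterol (chromosome 11, 71145514 to 71145573, minus strand). Its signal in the parental line was 181 without and 91.5 with AZA, and in the resistant line 285 without and 192 with it. AZA was below vehicle in each line, and both MDS-L/CDA arrays were above both MDS-L arrays.
LSS encodes lanosterol synthase, which closes the sterol ring system. Its brighter feature (chromosome 21, 47609299 to 47609358, minus strand) gave 43.2 with vehicle and 37.9 with AZA in the parental cells, and 74.7 and 46.8 in the resistant cells. The MDS-L/CDA vehicle array stood above the other 3.
The dimmer LSS feature (chromosome 21, 47608567 to 47608626, minus strand) gave 2.05, 1.35, 2.42 and 1.52 on the same arrays in the same order. The 2 features gave nearly the same AZA/vehicle ratio in the resistant line, 0.626 and 0.629, but different ratios in the parental line, 0.877 for the brighter and 0.661 for the dimmer.

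FDPS encodes farnesyl diphosphate synthase, whose product feeds both sterols and the isoprenoid branches (chromosome 1, 155290269 to 155290328). Its signal was 157 with vehicle and 83.2 with AZA in the parental cells, and 168 and 175 in the resistant cells. The MDS-L AZA array was low and the other 3 lay close together.
SQLE encodes squalene epoxidase, a rate-limiting enzyme of the sterol-specific steps (chromosome 8, 126034443 to 126034502). Its signal in the parental line was 57.7 without and 41.0 with AZA, and in the resistant line 30.7 without and 38.5 with it. MDS-L vehicle was the highest array and MDS-L/CDA vehicle the lowest, so that the AZA arrays of the 2 lines lay between the vehicle arrays.

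**Figure D1:**
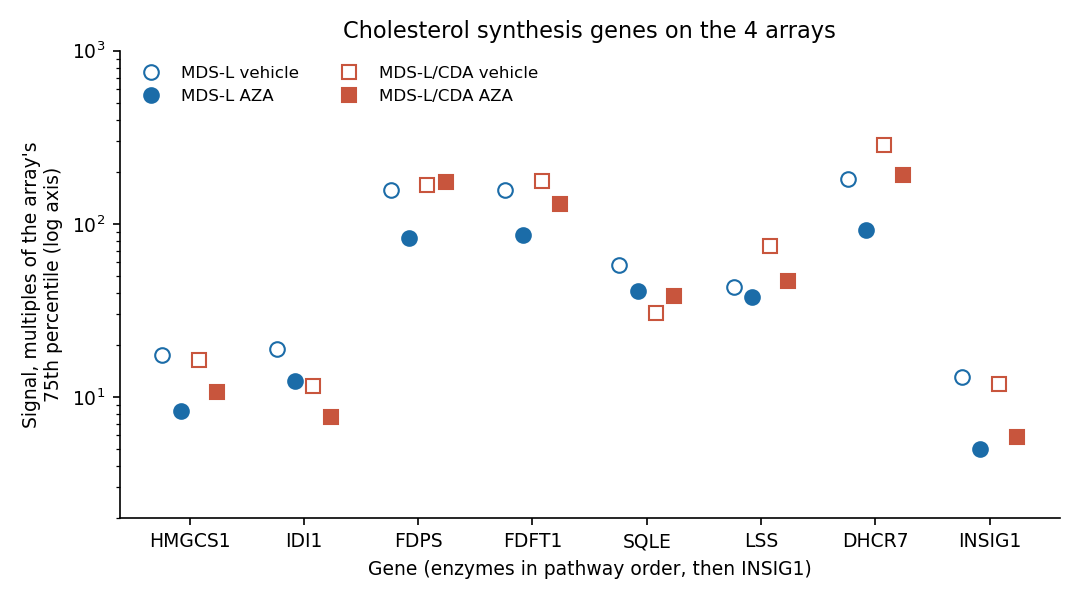
Signal of each of the 8 genes on the 4 arrays, as multiples of the array's 75th percentile on a log axis, with 1 array per point (circles MDS-L, squares MDS-L/CDA, open vehicle, filled AZA). For HMGCS1, FDFT1 and INSIG1 both filled symbols lie below both open ones, an order whose share over all genes was not counted. For FDPS only MDS-L AZA (83.2) lies apart. Levels of different genes come from different probes and are not comparable.

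The first comparison asked how AZA moved these genes in MDS-L cells. All 8 genes had a lower signal with AZA than with vehicle, and 7 of 8 did with quantile normalization and in the authors' value table, where LSS was just above 1 (log2 ratio 0.03). So did 62.3% of all genes, and 71.7% of the genes at least as bright as the dimmest of the 8. INSIG1 fell 2.60-fold (ratio 0.385, log2 ratio -1.38) and HMGCS1 fell 2.10-fold (ratio 0.477, log2 ratio -1.07), and these were the 2 of 8 genes that were at least 2-fold lower. HMGCS1 lost that call with quantile normalization (log2 ratio -0.90), in the authors' value table and with normexp background correction (-0.92), with which DHCR7 took its place (-1.23). The background in the same comparison was 5.90% of 15104 genes at least 2-fold lower, and 4.44% at least 2-fold higher, where none of the 8 genes lay. DHCR7 was just outside the 2-fold limit at 1.98-fold lower (ratio 0.505), followed by FDPS (ratio 0.529), FDFT1 (0.544), IDI1 (0.650), SQLE (0.712) and LSS (0.877).
At a limit of 1.5-fold, 6 of the 8 genes were lower and none higher, where 18.3% of all genes were lower and 10.3% higher. The 6 were all but SQLE and LSS.
The median log2 ratio of the 8 genes was -0.90, where that of all genes was -0.16 and that of the 6279 genes at least as bright as the dimmest of the 8 was -0.23. INSIG1 stood at percentile 2.13 of all genes, HMGCS1 at 4.82, DHCR7 at 6.08, FDPS at 7.33 and FDFT1 at 8.03, counted from the lowest ratio. LSS, at percentile 46.9 by its brighter feature, lay near the middle of all genes, and its log2 ratio of -0.19 was smaller than the spot SD of 0.28. Its dimmer feature had a log2 ratio of -0.60, or 1.51-fold lower, which is past the 1.5-fold limit.

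The second comparison asked the same in the AZA-resistant MDS-L/CDA cells. INSIG1 was again the lowest of the 8 genes, at a ratio of 0.499 (log2 ratio -1.002), and was the 1 gene at least 2-fold lower. It passed that limit by little, at 2.003-fold, and did not pass it with quantile normalization, normexp background correction or the authors' value table. The background was 2.83% of 14137 genes at least 2-fold lower and 2.00% at least 2-fold higher, and none of the 8 genes was 2-fold higher.
LSS (ratio 0.626), HMGCS1 (0.654) and IDI1 (0.659) were between 1.5-fold and 2-fold lower. DHCR7 (0.672) lay just outside 1.5-fold, and FDFT1 was at 0.740. In all 4 of 8 genes were at least 1.5-fold lower and none higher, against a background of 8.99% lower and 7.90% higher.
FDPS at 1.04 and SQLE at 1.26 were the 2 genes with a ratio above 1, and neither log2 ratio (0.059 and 0.33) reached the spot SD of 0.37. Without scaling between arrays the log2 ratio of FDPS was -0.07. The median log2 ratio of the 8 genes was -0.59, where that of all genes was 0.012 and 48.5% of all genes had a ratio below 1.

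**Figure D2:**
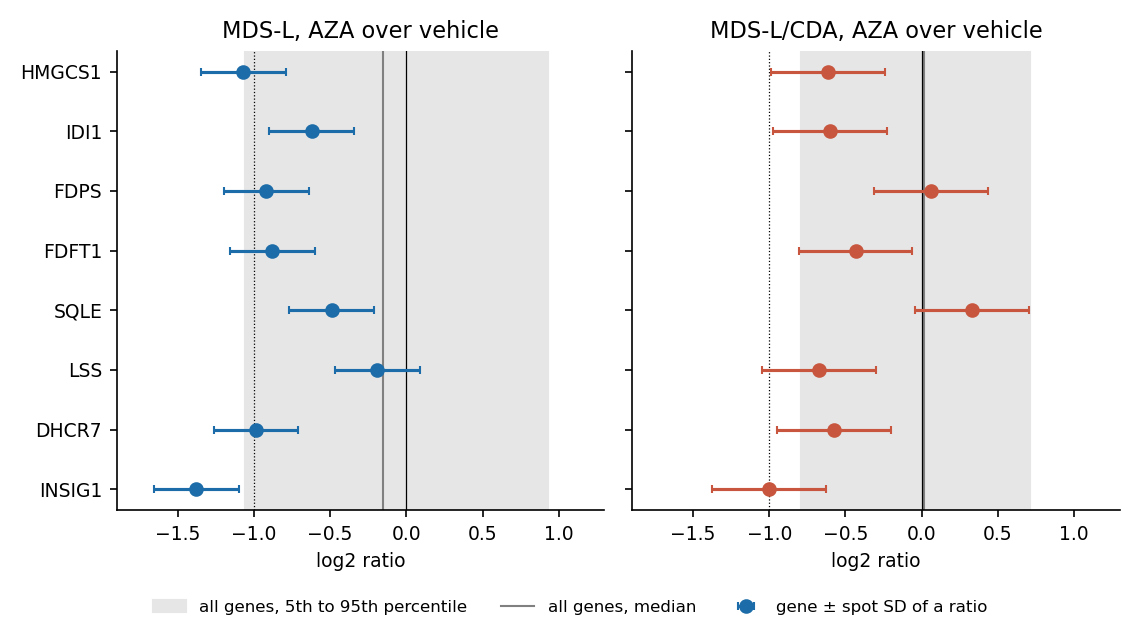
Log2 AZA/vehicle ratio of each of the 8 genes in MDS-L (left) and MDS-L/CDA cells (right). Bars are the SD of a log2 ratio between spots of one probe (0.28 and 0.37), the grey band spans the 5th to 95th percentile of all genes, the grey line is their median, and the dotted line marks 2-fold lower; INSIG1 has ratios of 0.385 and 0.499.

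Side by side, 6 of the 8 genes were lower with AZA in both lines, as were 37.1% of the 13962 genes measured on all 4 arrays. INSIG1 was the only one of the 8 among the 106 genes (0.759%) at least 2-fold lower in both. The log2 ratio in MDS-L cells was below that in MDS-L/CDA cells for 7 of the 8 genes and for 62.8% of all genes. That count was 6 with either quantile normalization, no scaling between arrays and the authors' value table, and 8 with each array scaled to its median. The difference, MDS-L minus MDS-L/CDA, had a median of -0.43 over the 8 genes and -0.15 over all genes, and over the settings the former ran from -0.92 with median scaling to -0.23 with quantile normalization of the pair.
It was furthest below 0 for FDPS (-0.98) and SQLE (-0.82), whose ratios had opposite signs in the 2 lines. For HMGCS1 (-0.46), FDFT1 (-0.45), DHCR7 (-0.41) and INSIG1 (-0.37) it was of similar size. IDI1 had nearly the same ratio in both lines, with a difference of -0.02 that was above 0 in 4 settings, at up to 0.13. LSS had a difference of 0.48, with the lower ratio in MDS-L/CDA cells, which was -0.001 with median scaling, and its dimmer feature had -0.60 in MDS-L and -0.67 in MDS-L/CDA cells. The SD of this difference over all genes was 0.62, and with 1 array per condition none of these differences could be tested.

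**Figure D3:**
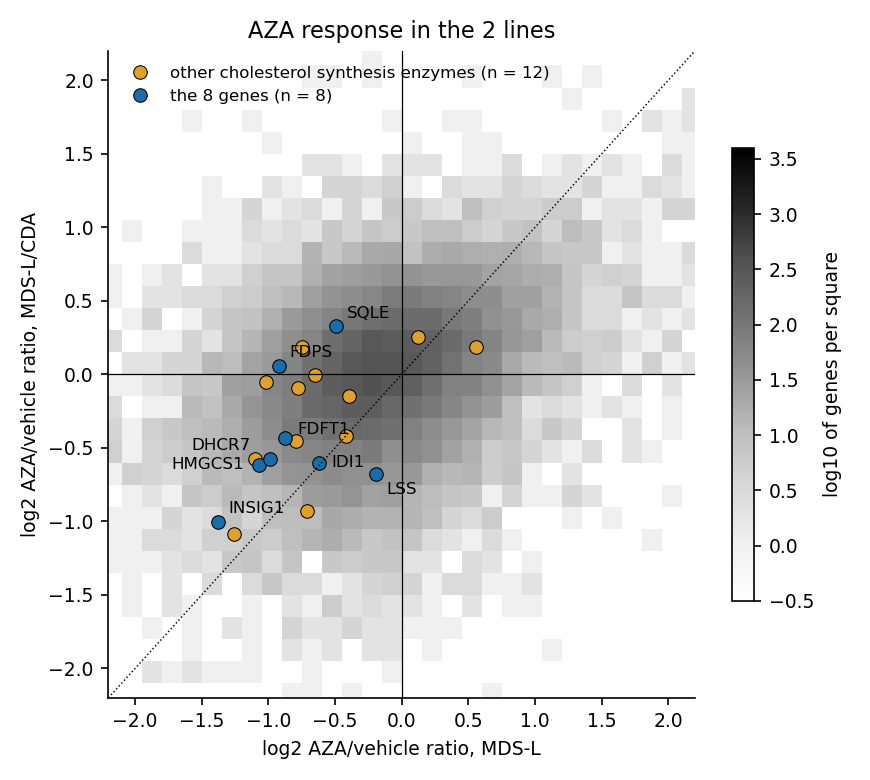
Log2 AZA/vehicle ratio in MDS-L cells (x axis) against MDS-L/CDA cells (y axis) for the 8 genes (blue), 12 other cholesterol synthesis enzymes (orange) and all 13962 genes (grey squares, log10 of genes per square). The dotted line marks equal ratios; 6 of the 8 genes lie below 0 on both axes, and FDPS and SQLE lie above 0 on the y axis.

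The lines were also compared with each other under the same treatment. With vehicle, none of the 8 genes differed 2-fold, and the background was 2.17% of 14510 genes at least 2-fold lower in MDS-L/CDA cells and 1.59% at least 2-fold higher. The 8 genes split evenly, with SQLE (ratio 0.532) and IDI1 (0.613) at least 1.5-fold lower in MDS-L/CDA cells and LSS (1.73) and DHCR7 (1.57) at least 1.5-fold higher, where 6.88% of all genes were lower and 7.38% higher at that limit. FDFT1 (1.11), FDPS (1.07), HMGCS1 (0.938) and INSIG1 (0.910) had log2 ratios smaller than the spot SD of 0.30. For SQLE the lines thus stood further apart with vehicle than with AZA, where its ratio was 0.938. The dimmer LSS feature gave 1.18 where the brighter gave 1.73.
With AZA, FDPS (ratio 2.10) and DHCR7 (2.09) were at least 2-fold higher in MDS-L/CDA cells and none of the 8 genes was 2-fold lower, and the background was 5.32% of 14542 genes higher and 3.91% lower. FDFT1 (1.52) joined them at 1.5-fold, and IDI1 (0.622) was lower, where 21.5% of all genes were higher and 9.08% lower at that limit. HMGCS1 was at 1.29, LSS at 1.23 and INSIG1 at 1.18. The median log2 ratio of the 8 genes was -0.0002 with vehicle and 0.33 with AZA, and that of all genes was 0.093 and 0.23. The 2-fold calls of FDPS and DHCR7 were lost with quantile normalization, normexp background correction, no scaling between arrays and the authors' value table.

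The rest of the pathway was read from 13 other enzymes of cholesterol synthesis, a list that does not hold every enzyme, of which 12 were measured. In MDS-L cells 10 of the 12 had a ratio below 1, 3 were at least 2-fold lower (1 with quantile normalization, normexp or the authors' value table, 8 with median scaling), 8 at least 1.5-fold lower and none 1.5-fold higher, and the median was -0.73 on the log2 scale. At 1.5-fold, either quantile normalization and the authors' value table gave 5 lower and 1 higher, and median scaling gave 10 lower. The background in MDS-L cells was 62.3% of all genes below 1, 5.90% 2-fold lower and 18.3% 1.5-fold lower. In MDS-L/CDA cells 9 of the 12 had a ratio below 1, 1 was at least 2-fold lower and 2 at least 1.5-fold lower, with a median of -0.12.
MSMO1, the sterol C4-methyl oxidase, fell in both lines, from 1.86 to 0.779 in MDS-L cells (ratio 0.419) and from 1.87 to 0.884 in MDS-L/CDA cells (0.472). Mevalonate kinase (MVK) fell in MDS-L cells to a ratio of 0.466 and had a ratio of 0.670 in MDS-L/CDA cells.
CYP51A1, the lanosterol demethylase, was low on the same array as FDPS, with 38.3, 18.9, 50.2 and 48.5 in MDS-L vehicle, MDS-L AZA, MDS-L/CDA vehicle and MDS-L/CDA AZA. Its ratios were 0.493 and 0.966. HSD17B7, the sterol 3-ketoreductase, had ratios of 0.611 and 0.526, and phosphomevalonate kinase (PMVK) had 0.579 and 0.729. Dimmer HSD17B7 features well above background on the 4 arrays had 0.939 and 0.623 in MDS-L cells, and 0.747 and 0.748 in MDS-L/CDA cells.

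Isoprenoid branches leave the pathway before squalene and make dolichol, ubiquinone and protein prenyl groups. All 8 measured genes had a ratio below 1 in MDS-L cells (7 with quantile normalization), with a median log2 ratio of -0.25, and 4 of 7 in MDS-L/CDA cells, with a median of -0.08 that was 0.08 with the mean over all features of a gene. Among all genes 62.3% were below 1 in MDS-L cells (median -0.16) and 48.5% in MDS-L/CDA cells (median 0.012). Among genes at least as bright as the dimmest of the 8 members, 71.7% were below 1 in MDS-L cells (median -0.23). Of the branch genes NUS1, a subunit of the dolichol-forming prenyltransferase, fell at least 2-fold in the parental line (ratio 0.439), though not with quantile normalization, and was at 0.718 in the resistant line. This is its brightest feature, and the other 3 features, all well above background on the 4 arrays, had ratios of 0.684 to 0.842 in the parental line and 1.01 to 1.74 in the resistant line. PDSS1 (0.667 and 1.21) and PDSS2 (0.912 and 0.613), the subunits that make the ubiquinone side chain, were each low in a different line by their brighter features. Their dimmer features had 0.806 and 1.00 for PDSS1, and 1.05 and 1.15 for PDSS2.
Among 8 genes for the SREBPs and the proteins that carry, hold and cut them, none moved 1.5-fold in MDS-L cells, with a median log2 ratio of -0.20, which was 0.02 with quantile normalization over the 4 arrays. With each array scaled to its median 5 of the 8 were at least 1.5-fold lower there and the median was -0.75, where that of all genes was -0.70. The median was -0.09 in MDS-L/CDA cells, and 0.06 with the mean over all features of a gene. One of the 8 moved 1.5-fold there, RNF139, a ubiquitin ligase of the endoplasmic reticulum, at 2.00, just under the 2-fold limit, with signals of 33.8, 29.4, 15.1 and 30.2 in MDS-L vehicle, MDS-L AZA, MDS-L/CDA vehicle and MDS-L/CDA AZA, so that its MDS-L/CDA vehicle array was the low one. Dimmer features of 2 other genes, named for that reason, differed from their brighter ones in the resistant line, with ratios of 2.66 against 0.838 for the protease gene MBTPS1 and 1.69 against 0.909 for INSIG2. SREBF2, which encodes SREBP2 and is named here outside the naming rule, had a log2 ratio of -0.04 in both lines, and SREBF1, likewise, had -0.54 and 0.10, with ratios of 1.06 in both lines by its dimmer feature.
Fatty acid synthesis shares the SREBPs, mainly SREBP1. Of 9 genes 7 had a ratio below 1 in each line, with a median log2 ratio of -0.60 in the parental line and -0.46 in the resistant line. ACACA, the acetyl-CoA carboxylase, fell in both lines by its brighter feature (ratios 0.421 and 0.491), whereas its dimmer feature, well above background on the 4 arrays, had 0.427 and 1.25. With quantile normalization over the 4 arrays no gene of this list was 2-fold lower in the parental line, and 1 was in the resistant line. With quantile normalization of the pair neither line had one. Fatty acid synthase (FASN) was at 0.610 and 0.640, the desaturases SCD and FADS1 at 0.640 and 0.653 in the parental line and 1.04 and 0.728 in the resistant line, and LPIN1, a phosphatidate phosphatase, rose 2.61-fold in the parental line and was at 1.22 in the resistant line.

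Of 12 genes for sterol uptake, lysosomal release, transport and storage, 11 were measured, and their median log2 ratio was -0.39 in MDS-L and 0.05 in MDS-L/CDA cells, the latter -0.08 without scaling between arrays. The lipoprotein receptor LRP8 fell in both lines, with signals of 9.33, 3.51, 8.57 and 3.06 in MDS-L vehicle, MDS-L AZA, MDS-L/CDA vehicle and MDS-L/CDA AZA (ratios 0.376 and 0.357). LIPA, the lysosomal acid lipase, fell in the parental line (0.416) and was at 1.03 in the resistant line, where vehicle was already low (12.6, against 33.2 in MDS-L vehicle). TMEM97, the sigma-2 receptor, fell in the parental line (0.455) and was at 0.957 in the resistant line, SCARB1 was at 0.537 and 0.770, and VLDLR at 1.82 and 1.23.
Liver X receptors drive sterol efflux when sterols are plentiful. Of 7 genes on that list 6 were measured, 4 with a ratio above 1 in the parental line and 5 in the resistant line. Of all genes 62.3% and 48.5% were below 1 in these lines. The median log2 ratios of the list were 0.25 and 0.41, the former -0.29 with each array scaled to its median. MYLIP, the ligase that degrades lipoprotein receptors, rose 6.14-fold in the parental line and was at 1.03 in the resistant line, where vehicle (15.3) was already above MDS-L vehicle (2.17). The receptor NR1H3 rose 2.03-fold in the parental line and was at 1.34 in the resistant line. The transporters did not follow one direction, since ABCA1 fell in the parental line (0.425) and was at 1.59 in the resistant line, and ABCG1 was at 1.27 and 1.70.

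**Figure D4:**
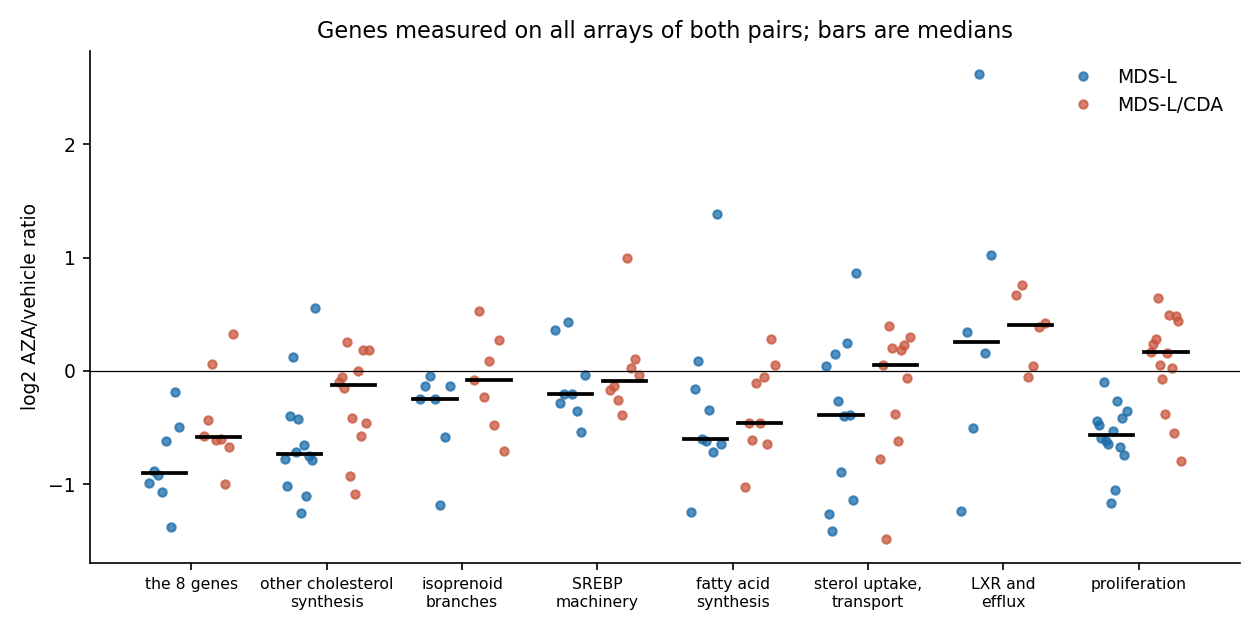
Log2 AZA/vehicle ratio of every gene measured in both lines, by list, in MDS-L (blue) and MDS-L/CDA cells (red), with 1 gene per point and a black bar at the median. The 8 genes have medians of -0.90 and -0.59, and the proliferation genes -0.56 and 0.17.

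The pattern over the 4 arrays was averaged over the 8 genes after each gene's log2 signals had been centred on their mean. The averaged values were 0.32 with vehicle and -0.49 with AZA in the parental line, and 0.30 and -0.13 in the resistant line, so the vehicle arrays were level and MDS-L AZA was the lowest. FDFT1 (Euclidean distance 0.21) and HMGCS1 (0.22) were nearest to this average, and SQLE (0.89) and IDI1 (0.88) furthest from it. Among 13954 other genes well above background on the 4 arrays, the 5 closest were LMO2 (distance 0.020), TAMM41 (0.034), RNASET2 (0.052), CEBPA (0.061) and NR6A1 (0.064). LMO2, a haematopoietic transcription cofactor, had signals of 117, 67.4, 117 and 85.3 in the same order of arrays, and CEBPA, a myeloid transcription factor, had 125, 75.2, 127 and 92.6. Closeness over 4 arrays is a description of these values only.

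Proliferation genes and markers of cell identity were read in the same comparisons. All 14 proliferation genes had a ratio below 1 in MDS-L cells (median log2 ratio -0.56, 2 at least 2-fold lower), and 4 of 14 in MDS-L/CDA cells (median 0.17). In MDS-L cells 13 of the 14 proliferation genes were below 1 and none was 2-fold lower in the authors' value table (median -0.28). MCM3 and MCM6, parts of the replicative helicase, fell to 0.447 and 0.482 in the parental line and were at 0.767 and 1.41 in the resistant line. MCM5, of the same helicase, was at 0.691 and 1.12, the cyclin CCNA2 at 0.664 and 1.22, and thymidylate synthase (TYMS) at 0.781 and 0.575. Their part in the ratios of the 8 genes was not tested. Of 8 leukocyte and myeloid progenitor markers all were measured in the parental line, with 4 ratios below and 4 above 1 and a median log2 ratio of -0.005, which ran from -0.55 to 0.20 over the settings, and 7 in the resistant line, with 4 below and 3 above 1 and a median of -0.08, or 0.17 with the mean over all features of a gene. The stem cell factor receptor KIT rose 47.3-fold in the parental line, from 0.503 to 23.8, and 3.58-fold in the resistant line, where the rise was under 2-fold with normexp background correction. CD38 fell to 0.359 in the parental line and was at 0.725 in the resistant line. SPN was at 1.66 in the parental line and not well above background on either array of the resistant line, and ANPEP was at 0.896 and 0.633. The other 4, named outside the naming rule, were PTPRC at 0.758 and 0.943, CD34 at 0.728 and 1.35, CD33 at 1.299 and 0.864, and IL3RA at 1.11 and 1.36. One dimmer feature each of PTPRC, CD33 and CD34 lay on the other side of 1 in the resistant line, at 1.16, 1.48 and 0.990.
Of 5 B and T cell markers, CD79A was measured on both arrays of each line, at a ratio of 0.762 in the parental line and 0.967 in the resistant line. The T cell receptor subunit CD3D, named outside the naming rule, was well above background only in MDS-L AZA, at a signal of 4.47 against 0.177 with vehicle, and was at least 23.6-fold higher there, taken against the lowest signal well above background on the vehicle array. CD2 had signals of 0.217 without and 1.29 with AZA in the parental line, and 0.261 and 0.451 in the resistant line, and was well above background on the AZA arrays only. It was at least 5.94-fold higher with AZA in the parental line and at least 1.66-fold higher in the resistant line, and 2.85-fold lower in the resistant than in the parental line with AZA. CD3E and MS4A1 were not well above background on any array, and none of 6 fibroblast and epithelial markers was measured on both arrays of any pair. A change in the mix of cells and a change per cell cannot be told apart in these arrays. The CDA feature reached that flag on none of the 4 arrays, so it gave no check of the transduced line, and whether it lies within the transduced sequence was not examined. DNMT1, the methyltransferase that AZA traps, had a ratio of 0.799 in the parental line and 1.11 in the resistant line.

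How far the values rest on scaling was read from 9 other settings. In MDS-L cells the median log2 ratio of the 8 genes ran from -1.44 with each array scaled to its median to -0.64 with quantile normalization, and that of all genes from -0.70 to 0.03. The distance between the 2 medians ran from -0.93 to -0.60. In MDS-L/CDA cells that distance ran from -0.62 to -0.58. The count of genes 2-fold lower in MDS-L cells ran from 1 to 7 of 8 over these settings, with INSIG1 at -1.14 or lower in each of them, and in MDS-L/CDA cells INSIG1 ran from -1.13 to -0.92.

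**Figure D5:**
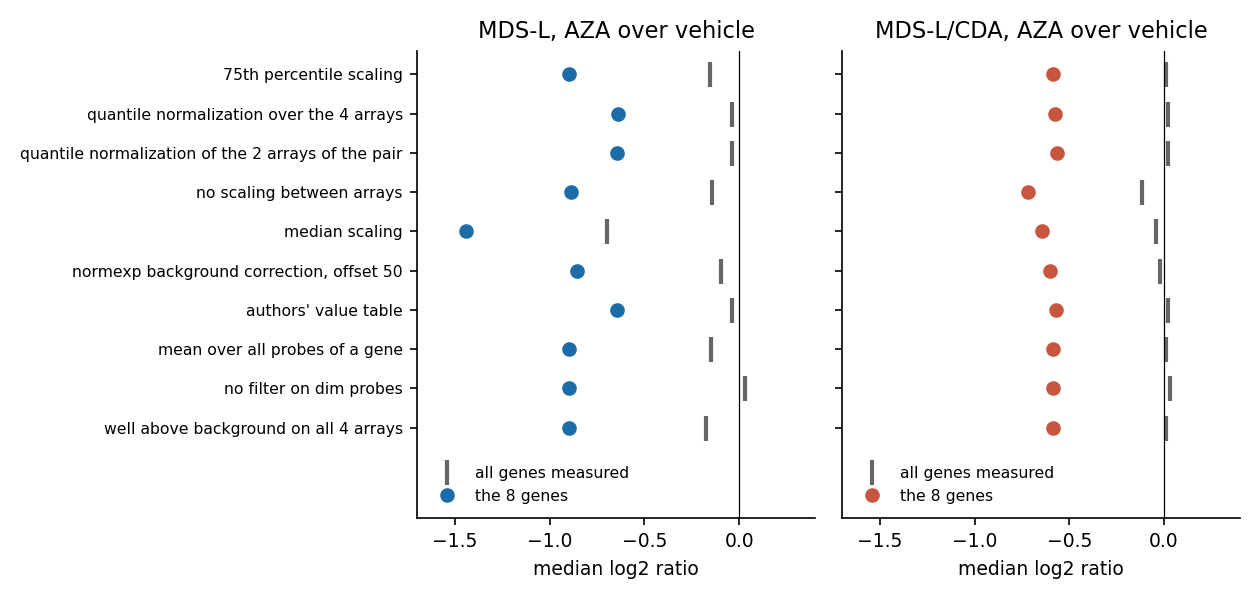
Median log2 ratio of AZA over vehicle for the 8 genes (circles) and of all genes measured (bars) in MDS-L (left) and MDS-L/CDA cells (right) under the main scaling and 9 other settings. The circle lies left of the bar in every setting, by 0.60 to 0.93 in MDS-L cells and 0.58 to 0.62 in MDS-L/CDA cells.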

How the data were processed

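The 4 arrays, of Agilent design 072363, single-colour (Cy3) and on 1 slide, held 1 RNA sample each and were grouped by title. IL-3 was at 20 ng/mL by the labels and at another concentration by the study's methods. The authors deposited the scanner output of Agilent Feature Extraction 10.7.1.1, whose intensity is background-subtracted and detrended within each array and not normalized between arrays, and a value table of intensity that they normalized between arrays by a method not stated. The log2 values of each of its columns and those of the same array's scanner output had a Pearson correlation of at least 0.999 over 51664 probes.

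Control spots and spots flagged as outliers were left out, which removed 16 of 58201 probes. A probe's log2 intensity was the mean of its spots, from which the 75th percentile of the array was subtracted. A gene was read by the probe with the highest mean log2 signal, if well above background on both arrays of a pair, and called at a ratio of 2 in either direction. Beside the 8 genes, 10 lists with 91 genes were read, and some genes of these pathways and cell types are not reported here. The 8 genes, the lists, the tests and the alternatives were chosen with earlier results of these data known. Named in full are the 8 genes, from each list up to 5 genes that moved furthest among those at least 1.5-fold different with AZA or 2-fold different between the lines, and the 5 genes most alike. Genes named beyond this rule are marked as such. Alternatives were 5 other scalings or background corrections, the authors' value table, the mean over all probes, 2 other filters on dim probes, a ratio of 1.5, and a Z score of at least 2 beside the ratio, with the SD taken in 10 bins by brightness. The procedure was tested on simulated arrays, made from the vehicle arrays by adding spot noise and known changes. These held no variation between cultures or hybridizations, so they do not check the calls against it. Positions of probes are on hg19, as in the scanner output, and whether a probe lies in a coding exon or a UTR was not analysed here. The number of arrays limits the precision. R 4.3.3 with limma 3.58.1 (normexp, offset 50), Python 3.11.15, numpy 2.4.6, pandas 2.3.3 and matplotlib 3.10.9 were used.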

Additional observations from a re-analysis of the deposited data

Results flagged for a closer look

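For 14 genes with values above, the log2 AZA/vehicle ratio had opposite signs in the parental and the resistant line. With 1 array per condition these differences between the lines were not tested. For 13 of them it was below 0 in the parental and above 0 in the resistant line. Most of these genes were named because they moved far, and the share of all genes with opposite signs was not counted. Of 13962 genes measured on all 4 arrays, 64.1% were below 0 in the parental line. In the resistant line 48.6% were, and 37.1% were below 0 in both, so opposite signs were common. Among the 8 genes those with opposite signs were SQLE, at -0.49 in MDS-L and 0.33 in MDS-L/CDA cells, and FDPS, at -0.92 and 0.059. Among the other pathway lists RNF139 was at -0.20 and 1.00, SREBF1 at -0.54 and 0.10, and PDSS1 at -0.58 and 0.27. SCD was at -0.64 and 0.052, LIPA at -1.27 and 0.048, and ABCA1 at -1.23 and 0.67. Among the proliferation genes MCM6 was at -1.05 and 0.49, CCNA2 at -0.59 and 0.28, and MCM5 at -0.53 and 0.16. DNMT1 was at -0.32 and 0.16, and CD34 at -0.46 and 0.43. CD33 had the opposite order, at 0.38 and -0.21. In MDS-L/CDA cells the values of RNF139, ABCA1, MCM6 and CD34 were larger in size than the spot SD of a log2 ratio (0.37), and those of the other 10 genes were smaller. In MDS-L cells the value of RNF139 was smaller than the spot SD there (0.28). All these values are of the brightest feature. Dimmer features had the same sign in both lines for CD34 (-0.34 and -0.015), SREBF1 (0.090 and 0.079) and CD33 (0.14 and 0.56). Those of PDSS1, ABCA1 and MCM5 again had opposite signs. For SQLE, RNF139 and LIPA the MDS-L/CDA vehicle array was the lowest of the 4 arrays.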

How the results depend on the processing

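No direction of a called value reversed. The AZA/vehicle ratios of the 8 genes stayed within the spot SD of their main value in 136 cases and moved further in 8, which were the ratios in MDS-L cells with median scaling. With median scaling the genes 2-fold lower in MDS-L cells became 7 of 8 (median log2 ratio -1.44), the median of all genes moved to -0.70, the share of 2-fold calls that were higher moved from 42.9% to 6.89%, and the median difference between the lines became -0.92. The count in MDS-L cells was 1 with either quantile normalization, the authors' value table or the Z score rule, and 6 at 1.5-fold. In MDS-L/CDA cells it was 0 with either quantile normalization, normexp or the authors' value table, and 4 at 1.5-fold. For MDS-L/CDA over MDS-L with vehicle, 2 genes were 2-fold lower without scaling (median -0.37) and with median scaling (median -0.52), 1 was with normexp, and at 1.5-fold 2 were lower and 2 higher. For the same comparison with AZA, the 2 genes 2-fold higher became 0 with either quantile normalization, no scaling, normexp or the authors' value table. Without scaling 1 gene was 2-fold lower there and the median was -0.17, and at 1.5-fold 1 was lower. The share of 2-fold calls in all genes that were higher was 41.4% in MDS-L/CDA AZA over vehicle, and 25.5% without scaling and 25.3% with normexp. It was 42.2% for the lines with vehicle, against 6.73%, 2.91% and 12.4% with no scaling, median scaling and normexp, and 57.6% for the lines with AZA, against 7.47%, 24.9% and 44.9% with no scaling, normexp and quantile normalization over the 4 arrays. No cause was tested. No paired analysis was possible because each condition has 1 array.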
